A study of Mus musculus with 11 samples.

Results

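Chromosome 6 of mouse embryonic stem cells (mESC) was examined in 11 low-coverage whole-genome sequencing libraries, as all 2927 chromosome 6 bins of about 50 kb among 52958 bins genome-wide (assembly mm10, chromosome 6 from 3050001 to 149586546). The chromosome was chosen because its bins stood higher in long-term than in early libraries, so that this contrast selected it and its values are given as a description, with no test. Ctrl cells carry Cre/ERT2 (a tamoxifen-activated recombinase) and the reporter Rosa26-LSL-H2b-Egfp. Tet iTKO cells carry both of these alleles and floxed (fl/fl) copies of Tet1, Tet2 and Tet3. Each genotype gave 1 library before treatment and 1 after acute treatment (1 µM tamoxifen for 2.5 days and 4 further days of culture). These are together called early here. Each genotype also gave 3 libraries of long-term cells, monoclonal populations that had the same 1 µM tamoxifen for 2.5 days and were kept for 30 days. The Dnmt TKO line, a germline and non-inducible knockout of Dnmt1, Dnmt3a and Dnmt3b, gave 1 long-term library. All cells were grown with 2i inhibitors on feeder fibroblasts and sorted as live CD326+ Thy1.2- cells. Tamoxifen-treated Ctrl and Tet iTKO cells were sorted for GFP in addition. Nothing in the labels says how many separate clones stand behind the 3 long-term libraries of a genotype, so that their spread may be technical, and p-values over them measure that spread alone. A read was taken as 50 bases, as 95.1% of bin values with under 8 reads had a base sum that is a multiple of it. The paper's methods give a longer minimum length for mapped reads, and the comparison with read counting depends on the length taken. Taking 50 bases a read, the chromosome 6 bins of 2 long-term libraries of a genotype differed by little or no more than read counting gives (chi-square per degree of freedom of 0.998 to 1.05 over the 6 pairs). Over all autosomal bins it was 1.02 to 1.15. It was highest in the pairs that hold long-term Tet iTKO replicate 2 (1.15 and 1.14), and was 1.02 between Tet iTKO replicates 1 and 3. Each library was counted as 1 sample.

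The depth of a bin, the mean number of reads over each base, follows the number of copies of that stretch in the cells. Mouse chromosome 6 carries Tet3, one of the TET dioxygenases that oxidise 5-methylcytosine, the Gt(ROSA)26Sor locus that holds the reporter, and the pluripotency genes Nanog and Dppa3. It also carries arrays of related genes: the natural killer gene complex with the lectin-like receptors of the Klra (Ly49), Klrb1, Klrc and Clec2 families, the vomeronasal receptors Vmn1r and Vmn2r, and the immunoglobulin kappa variable genes Igkv. Such arrays are known to differ in gene number between mouse strains.

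The natural killer and Vmn2r arrays held windows that differed between long-term Tet iTKO and Ctrl, and their members resemble one another closely. To show how closely, 90 bases upstream of the start of both members of 3 gene pairs are printed 5′ to 3′ on the minus strand, from RefSeq on GRCm38.p6 (the mm10 assembly), with capitals at the positions where the pair differs. Vmn2r20 and Vmn2r22 encode vomeronasal receptors, and Klra3, Klra4, Klra8 and Klra9 encode natural killer cell receptors.
Vmn2r20 (chr6:123418062-123418151): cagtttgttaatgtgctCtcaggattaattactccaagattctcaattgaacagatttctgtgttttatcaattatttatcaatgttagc
Vmn2r22 (chr6:123650636-123650725): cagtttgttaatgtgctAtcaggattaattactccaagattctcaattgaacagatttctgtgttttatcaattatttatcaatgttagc
Klra3 (chr6:130337628-130337717): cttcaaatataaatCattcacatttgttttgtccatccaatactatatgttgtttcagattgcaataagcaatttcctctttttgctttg
Klra9 (chr6:130193133-130193222): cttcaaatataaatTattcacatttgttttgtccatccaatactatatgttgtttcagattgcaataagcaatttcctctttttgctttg
Klra4 (chr6:130067272-130067361): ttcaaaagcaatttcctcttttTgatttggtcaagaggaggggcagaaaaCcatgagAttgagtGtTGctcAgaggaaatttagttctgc
Klra8 (chr6:130129900-130129989): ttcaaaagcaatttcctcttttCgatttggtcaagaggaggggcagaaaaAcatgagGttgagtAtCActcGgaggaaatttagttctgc
The Vmn2r pair differed at 1 of the 90 positions, as did Klra3 and Klra9, and Klra4 and Klra8 differed at 7. The stretches were placed against each other without gaps at the best-matching offset, so that they are the most alike stretches of these upstream regions. A short read from such a stretch can match more than 1 copy, and the depth over single genes of these arrays is therefore uncertain.

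The libraries held 555 to 812 megabases of mapped sequence, of which 32.1 to 47.0 lay in chromosome 6 bins. Depth was summed into 500 kb windows, divided by the median autosomal depth of the library, corrected for GC content and given as log2 (log2 relative depth), and 292 chromosome 6 windows of 4781 autosomal windows were kept. A single window had a noise of 0.026 to 0.044 per library on this scale. The X chromosome stood at 0.560 to 0.592 of the autosomal median in all libraries. The Y chromosome stood at 0.053 to 0.060 in the 4 early libraries and at 0.468 to 0.564 in the 7 long-term ones, so that stage and cell line cannot be told apart in any early against long-term value below. The long-term genotypes were apart on Y too, at 0.476 to 0.480 in Ctrl and 0.560 to 0.564 in Tet iTKO. Genotype and cell line therefore cannot be told apart either in the long-term Tet iTKO against Ctrl values. The same holds for the Dnmt TKO values, as the paper takes that line from earlier work.

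Taken as a whole, chromosome 6 was slightly higher in long-term than in early cells. In Ctrl, its median log2 relative depth was -0.0084 before treatment and -0.0059 after acute treatment, against 0.0076, 0.0080 and 0.0093 in the long-term libraries. All 3 long-term Ctrl libraries lay above both early ones. In Tet iTKO, the values were 0.0010 before treatment and -0.00087 after acute treatment, against 0.00046, 0.010 and 0.015. Long-term Tet iTKO replicate 1 lay between the early libraries, and replicates 2 and 3 lay above them. Without replicate 3 the Tet iTKO difference between stages went from 0.0086 to 0.0053. The Dnmt TKO library was at -0.0040.

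**Figure D1:**
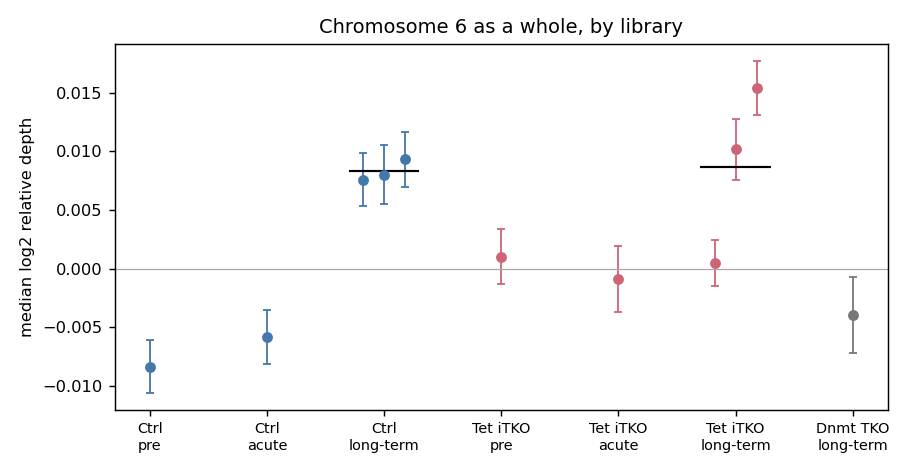
Median log2 relative depth over the 292 windows of chromosome 6 (vertical axis) in each of the 11 libraries, by genotype and stage. Bars on points are the standard error of the median from the spread of windows (0.0019 to 0.0032), black lines are means of 3 libraries, and the 3 long-term Ctrl libraries sit above the 2 early Ctrl libraries while 1 long-term Tet iTKO library sits with its early ones.

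The long-term minus early difference of these medians was 0.015 in Ctrl, 0.0086 in Tet iTKO and 0.012 as the mean of both, the highest of the 19 autosomes in each case. The other autosomes lay between -0.0066 (chromosome 9) and 0.0017 (chromosome 8) for the mean of both genotypes. A log2 difference of 0.012 is a depth change of 0.837%, which as arithmetic is what 1 extra copy in 1.67% of diploid cells would give. Without GC correction chromosome 6 was still highest for Ctrl (0.019) and was ranked 2 for Tet iTKO (0.0098), where chromosome 14 reached 0.012. Before that correction the stage difference of a chromosome 6 window went down with its GC share (Pearson's r = -0.65 over 292 windows of the same libraries), and after it r was 0.017.

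Averaged over both genotypes, the shift was spread along the chromosome rather than held by a few windows. On that average 221 of the 292 windows were higher in long-term libraries, 75.7% against 42.0% to 54.4% on the other autosomes. By genotype the share was 72.6% in Ctrl, where the highest other autosome had 59.0%. In Tet iTKO it was only 57.9%, close to the 54.4% of the highest other autosome. In no chromosome 6 window did all 6 long-term libraries lie apart from all 4 early ones with a difference of at least 0.1, against 0.0627% of all autosomal windows. At any size of difference, 3 of the 292 windows were apart in this way (1.03%), against a background of 0.858%. With a minimum of 0.05 there were 2 such windows, and the background was 0.335%.

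Both of these windows have named genes. The window from 61533418 to 62033286, within Ccser1, was higher in long-term cells by 0.051. Its early values were 0.044 and 0.011 in Ctrl and 0.029 and -0.020 in Tet iTKO, and its long-term values were 0.10, 0.047 and 0.066 in Ctrl and 0.080, 0.053 and 0.060 in Tet iTKO. The window from 146522134 to 147024496, with Ppfibp1, Stk38l, Arntl2 and Ints13 among its 9 protein-coding genes, was lower in long-term cells (difference of -0.056). Arntl2 encodes a transcription factor of the circadian clock, and Ints13 a subunit of the Integrator complex. They are the only windows both apart and past 0.05 and, being chosen from 292 on the same values, they carry no test.

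Within Ctrl alone, the 3 long-term libraries all lay above the 2 early ones in 88 of 292 windows (30.1%, background 12.8%) and all below them in 16 (5.48%, background 9.83%). Within Tet iTKO the counts were 39 above (13.4%, background 8.83%) and 22 below (7.53%, background 10.5%). These counts use the contrast that selected the chromosome.

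Along the chromosome, blocks of 10 Mb are numbered 1 to 15 from the first base. By genotype the stage difference was above 0 in 14 of 15 blocks in Ctrl and in 12 of 15 in Tet iTKO. Averaged over both genotypes it was above 0 in all 15 blocks, from 0.0031 in block 3 to 0.022 in block 13. The 3 highest were block 13 (120 to 130 Mb, 0.022), block 11 (100 to 110 Mb, 0.020) and block 9 (80 to 90 Mb, 0.020). The 3 lowest were block 3 (20 to 30 Mb, 0.0031), block 15 (140 Mb to the end, 0.0049) and block 10 (90 to 100 Mb, 0.0083).

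Block 9, which holds Tet3 and Mcm2, a subunit of the replicative helicase, was the only block in which all 6 long-term libraries lay above all 4 early ones. Its means were -0.019 and -0.012 in early Ctrl and -0.014 and -0.0083 in early Tet iTKO. They were 0.023, 0.0065 and -0.0066 in long-term Ctrl and 0.0036, -0.0022 and 0.013 in long-term Tet iTKO. The lowest long-term value (-0.0066) was close to the highest early one (-0.0083). How often all long-term libraries lay above all early ones in blocks of other autosomes was not counted. Nothing is therefore read from this block, which was also picked on the contrast that selected the chromosome. In Ctrl alone, long-term libraries lay above early ones in 13 of 15 blocks, against 34 of 231 blocks on the other autosomes. In Tet iTKO this held in 3 of 15 blocks, against 11 of 231.

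The end of the chromosome differed between the genotypes. In Ctrl, blocks 13 and 14 had the highest stage differences of all blocks, 0.042 and 0.038, and together made 15.1% and 13.4% of the summed Ctrl difference. In Tet iTKO block 13 stood at 0.0015 and block 14 at -0.020, the lowest Tet iTKO block. Block 14 means were -0.048 and -0.050 in early Ctrl, -0.014, -0.0028 and -0.018 in long-term Ctrl, -0.022 and -0.040 in early Tet iTKO and -0.049, -0.053 and -0.051 in long-term Tet iTKO. Early Ctrl and long-term Tet iTKO libraries thus had similar low values there. Outside 120 to 140 Mb, a region set after the values were seen, the chromosome shift was 0.014 in Ctrl and 0.011 in Tet iTKO.

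**Figure D2:**
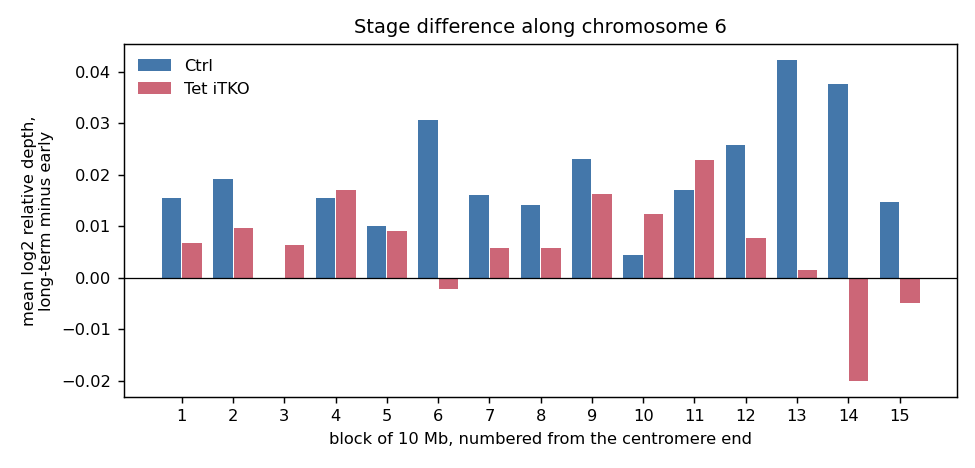
Mean long-term minus early difference in log2 relative depth (vertical axis) for each 10 Mb block of chromosome 6 in order along the chromosome (horizontal axis), in Ctrl (blue) and Tet iTKO (red). Ctrl bars are highest in blocks 13 and 14 (0.042 and 0.038), where Tet iTKO bars are at 0.0015 and -0.020.

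Window by window, the stage differences of Ctrl and Tet iTKO went in opposite directions at this end. Their Pearson correlation was -0.71 over the 40 windows from 120 to 140 Mb, -0.12 over the other 252 windows of the chromosome and 0.022 over 4489 windows of the other autosomes. Neighbouring windows share libraries and are not independent, and the values are a description. Both genotypes differed by at least 0.05 in opposite directions in 7 chromosome 6 windows, of which 6 lay from 120 to 140 Mb, and in 30 windows on all autosomes.

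**Figure D3:**
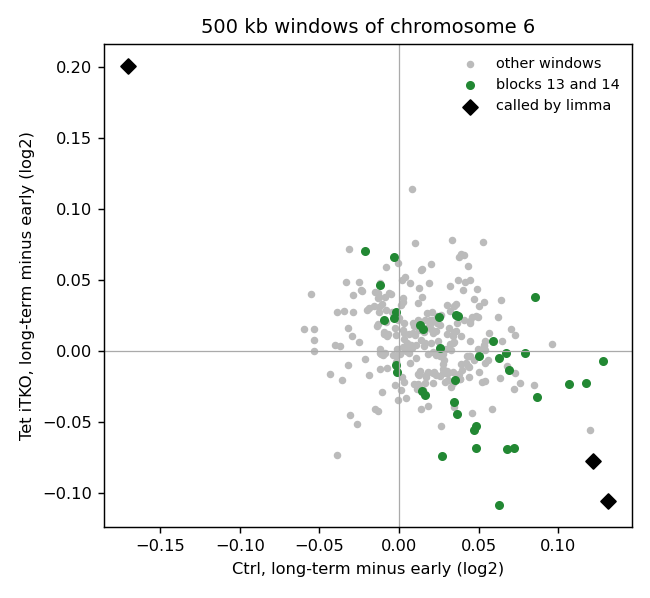
Each point is a 500 kb window of chromosome 6, with the long-term minus early log2 difference in Ctrl (horizontal axis) and in Tet iTKO (vertical axis). Green points are windows of blocks 13 and 14 and black diamonds are the 3 windows called by limma, at -0.17 and 0.20, 0.12 and -0.078, and 0.13 and -0.11.

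The comparison that did not choose the chromosome was long-term Tet iTKO against long-term Ctrl. In Tet iTKO the chromosome median averaged 0.0087 ± 0.0076 (SD, n = 3). The Ctrl average was 0.0083 ± 0.00091 (SD, n = 3). The difference of 0.00038 was smaller than the spread between replicates (two-sided exact permutation test, p = 0.9, where 0.1 is the smallest p that 3 against 3 allows).

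At 500 kb, single windows that differed between the long-term genotypes lay in the natural killer gene complex. With limma on all autosomal windows, 3 of 292 chromosome 6 windows (1.03%) had an adjusted p below 0.05, against 0.314% of all windows. A test of whether the stage difference itself differed between genotypes called the same 3 windows, against a background of 0.272%. That test rests on 2 early libraries per genotype, whose spread was taken to be that of the long-term libraries. It is also built from the early and long-term values that selected the chromosome. Its p-values and shares, here and below, are therefore a description. At an unadjusted p below 0.05 there were 52 windows for the genotypes (17.8%, background 11.3%) and 33 for the stage difference (11.3%, background 6.23%).

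The first window, 128515837 to 129015705, holds Klrb1, Klrb1a, Klrb1b and Klrb1c (NKR-P1 receptors), Clec2g, Clec2h and Clec2i (of the family that holds their ligands), and Pzp and A2ml1 (alpha-2-macroglobulin family). Its log2 relative depth was 0.14, 0.14 and 0.15 in long-term Ctrl and -0.011, 0.0015 and 0.050 in long-term Tet iTKO. Early values were 0.025 and 0.026 in Ctrl and 0.074 and 0.11 in Tet iTKO. The groups did not overlap within either stage, and their order was opposite in early and long-term cells. The long-term difference was -0.13 ± 0.023 (SE; limma adjusted p = 0.0047), and the stage difference differed by -0.20 ± 0.036 (SE; limma adjusted p = 0.010). Without long-term Tet iTKO replicate 1 the limma adjusted p of the genotype difference was 0.0501. Without the acute Ctrl or the acute Tet iTKO library that of the stage difference was 0.0528 and 0.0992.

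The second window, 130015444 to 130515311, holds 8 Klra genes (Klra1, Klra3, Klra4, Klra6, Klra7, Klra8, Klra9 and Klra10). Its values were -0.019, -0.0063 and -0.093 in long-term Ctrl and -0.14, -0.17 and -0.20 in long-term Tet iTKO. Early Ctrl libraries were at -0.22 and -0.12, and early Tet iTKO libraries at -0.10 and -0.029. Long-term Tet iTKO was lower by -0.13 ± 0.026 (SE; limma adjusted p = 0.020), and the stage difference differed by -0.24 ± 0.041 (SE; limma adjusted p = 0.0058). Without long-term Ctrl replicate 1 or 2 or long-term Tet iTKO replicate 3, the adjusted p of the genotype difference was 0.24, 0.17 and 0.17. That of the stage difference was 0.19 without the pre-treatment Ctrl library and 0.11 without the acute Tet iTKO library.

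The third window, 130515312 to 131015180, went the other way and holds no protein-coding gene. Its values were -0.045, 0.018 and 0.072 in long-term Ctrl and 0.19, 0.19 and 0.25 in long-term Tet iTKO. Early Ctrl libraries stood at 0.17 and 0.20, and early Tet iTKO libraries at -0.0035 and 0.021. Long-term Tet iTKO was higher by 0.19 ± 0.027 (SE; limma adjusted p = 0.00040), and the stage difference differed by 0.37 ± 0.043 (SE; limma adjusted p = 3.7e-05). The Dnmt TKO library reached 0.48 here.

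In windows of 100 kb, 5 of 1458 chromosome 6 windows were called between the long-term genotypes (0.343%, background 0.147%). For the stage difference 10 of 1458 were called (0.686%, background 0.122%), the 5 among them. Joined where adjacent, the 10 formed 7 stretches. One pair carries Vmn2r20, Vmn2r21 and Vmn2r22, and the 6 others lie between positions 129615549 and 135214078.

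The stretch with the greatest depth difference, 130815234 to 131015180, overlaps 8 annotated pseudogenes, Gm33962 and Gm44133 among them. Its mean log2 relative depth was -0.0063, 0.032 and 0.062 in long-term Ctrl, and 0.050 and 0.12 in early Tet iTKO. It was 0.38 and 0.39 in early Ctrl and 0.38, 0.36 and 0.46 in long-term Tet iTKO, so that these 5 libraries did not overlap with the other 5. The Dnmt TKO library, at 0.79, was higher than all 10. Depth there was 104% of the autosomal median in the lower 5, 131% in the higher 5 and 173% in Dnmt TKO.

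**Figure D4:**
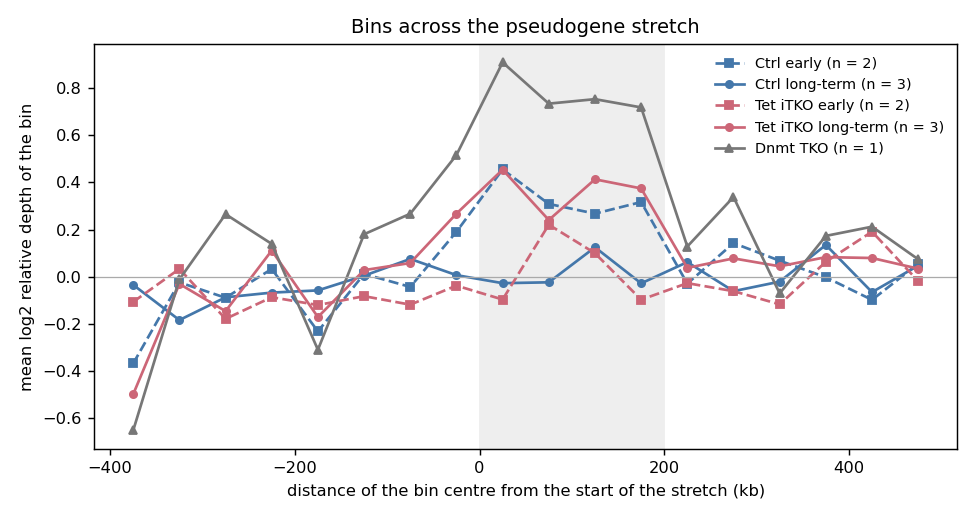
Mean log2 relative depth, not corrected for GC content, of single bins of about 50 kb (vertical axis) by distance from the start of the pseudogene stretch (horizontal axis, kb), with the stretch shaded. Within the shading early Ctrl (dashed blue) and long-term Tet iTKO (solid red) run between 0.24 and 0.46, long-term Ctrl and early Tet iTKO run lower, and Dnmt TKO (grey) is between 0.72 and 0.91.

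The other stretches moved the opposite way. The stretch with Klri1, Klri2, Klrk1 and Klrc1 to Klrc3 (129615549 to 129815495), which encode receptors of natural killer cells, was at 0.073, 0.079 and 0.050 in long-term Ctrl and at -0.039 and 0.021 in early Tet iTKO. It was at -0.23 and -0.15 in early Ctrl and at -0.19, -0.22 and -0.12 in long-term Tet iTKO. Dnmt TKO, at -0.39, was lower than all of them. The groups were split in the same way as at the pseudogene stretch.

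The stretch with Klra8 and Klra9 (130115417 to 130215390) was at -0.12, -0.082 and -0.094 in long-term Ctrl and at -0.31, -0.33 and -0.32 in long-term Tet iTKO. Early values were -0.45 and -0.33 in Ctrl and -0.14 and -0.10 in Tet iTKO, and Dnmt TKO was at -0.67. Here only the stage difference was called (-0.49 ± 0.079, SE; limma adjusted p = 0.00084), and the long-term difference had a limma adjusted p of 0.067.

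The Vmn2r stretch (123417176 to 123617122) was the exception among these arrays. Early Tet iTKO libraries, at -0.29 and -0.16, were low together with early Ctrl (-0.31 and -0.36) and long-term Tet iTKO (-0.29, -0.36 and -0.26). Only Ctrl cells of the long-term stage were near 0, at 0.036, -0.034 and 0.037, and Dnmt TKO was at -0.63. Of the 2 windows in it, the one with Vmn2r20 and Vmn2r21 differed between the long-term genotypes by -0.37 ± 0.051 (SE; limma adjusted p = 3.2e-05).

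**Figure D5:**
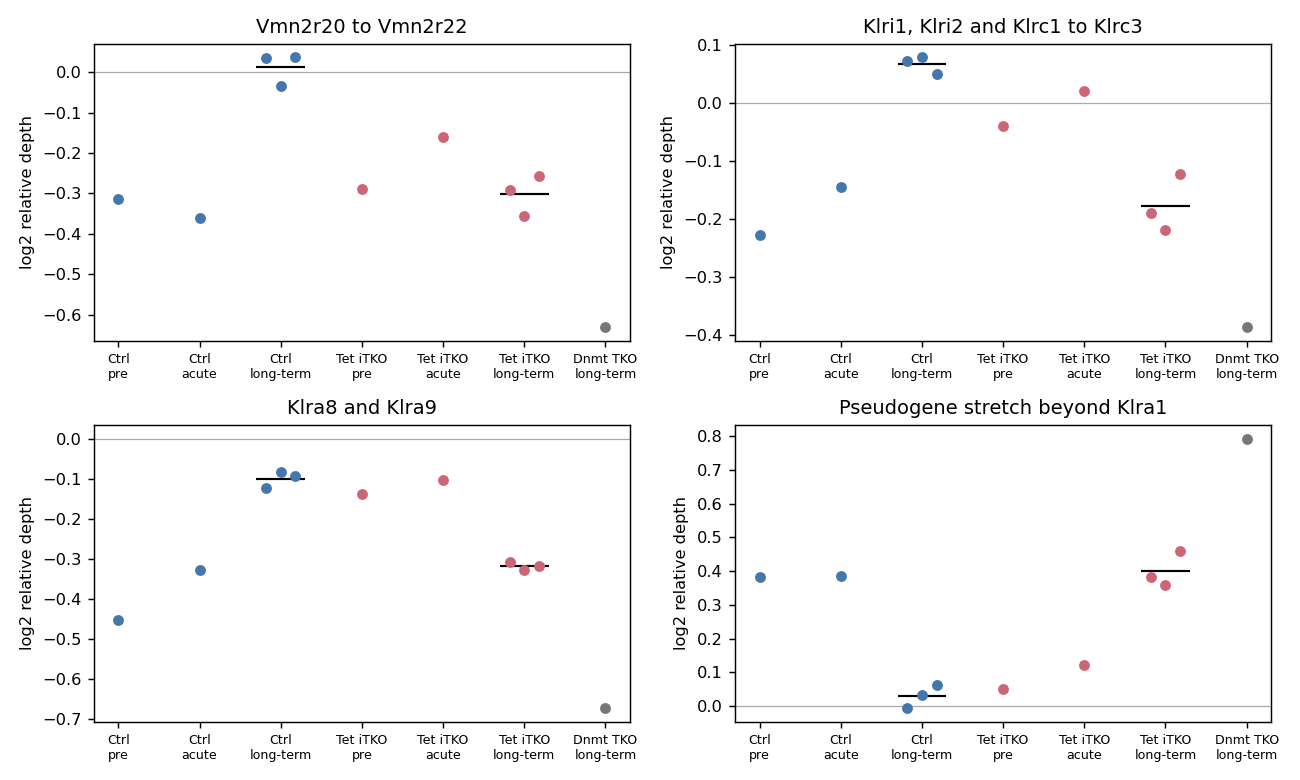
Log2 relative depth (vertical axes, scales differ between panels) in each library for 4 of the stretches called in 100 kb windows. Black lines are means of 3 libraries, and in the panels of the Klr, Klra and pseudogene stretches early Ctrl and long-term Tet iTKO lie on one side of long-term Ctrl and early Tet iTKO, with Dnmt TKO farthest out.

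The remaining 3 stretches hold single windows called for the stage difference alone, over 5530400C23Rik, over Etv6 (an ETS family transcription repressor) and over Gprc5d, Hebp1 and Fam234b. Etv6 was at 0.095, 0.073 and 0.032 in long-term Ctrl and at -0.11, -0.16 and -0.19 in long-term Tet iTKO. At Etv6 and at Gprc5d, Dnmt TKO was at -0.10 and -0.089, within the range of the Ctrl and Tet iTKO libraries. At 5530400C23Rik it was at -0.28, below the Ctrl and Tet iTKO libraries (-0.15 to 0.16).

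By gene family, the bins of 9 Vmn2r genes were higher in long-term than in early Ctrl by 0.13 on average and differed by -0.019 in Tet iTKO (GC-corrected log2). For 11 Klra genes the values were 0.11 and -0.029, for 15 other Klr genes 0.12 and -0.083, and for 22 Clec genes 0.065 and -0.022. The 100 Igkv genes, spread over 58 bins, had differences of 0.0039 and 0.0074, and the 33 Tas2r bitter taste receptor genes -0.0024 and 0.0023. Not all families outside the called 500 kb windows were that near 0. Vmn2r apart, they ran from -0.026 (Hoxa) to 0.049 (Try and Prss) in Ctrl. In Tet iTKO they ran from -0.011 (Trbv) to 0.052 (Hoxa). Called 500 kb windows held 8 Klra genes, 4 other Klr genes, 3 Clec genes and 1 gene of the Mug and A2m group, and no gene of the other 11 families listed.

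None of 18 single genes followed (among them Nanog, Dppa3 and Ezh2) lay in a called 500 kb window. Between the long-term genotypes only 1.03% of chromosome 6 windows were called (0.314% of all autosomal windows). The absence therefore says little about these genes. Tet3 (83362373 to 83459084, minus strand) spans 3 bins, which are longer than the floxed exon, so that its deletion need not be visible. Values of these single genes are log2 relative depth without GC correction, so that their stage differences may carry the trend with GC share given above. Tet3 was at -0.046, -0.049 and -0.063 in long-term Ctrl and at -0.027, 0.052 and 0.030 in long-term Tet iTKO. Early values were 0.075 and 0.072 in Ctrl and 0.079 and 0.0033 in Tet iTKO. The long-term libraries did not overlap, and the difference of 0.071 gave p = 0.1 in a two-sided exact permutation test, the smallest p it allows.

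Gt(ROSA)26Sor (113067428 to 113077333), in 2 bins, was at 0.28, 0.37 and 0.29 in long-term Ctrl and at 0.20, 0.28 and 0.37 in long-term Tet iTKO, which overlap. Nanog, in 1 bin, ranged from -0.11 to 0.39 over the 10 libraries, where the noise of a bin was 0.084 to 0.10 per library. Its long-term genotypes overlapped, while early Tet iTKO (0.39 and 0.20) lay above early Ctrl (0.073 and 0.18). Its stage difference was -0.048 in Ctrl and -0.17 in Tet iTKO. Mad2l1, a spindle checkpoint gene in 1 bin, was at 0.083, -0.033 and 0.10 in long-term Ctrl and at 0.29, 0.26 and 0.18 in long-term Tet iTKO. Its early values were 0.21 and 0.27 in Ctrl and -0.071 and -0.076 in Tet iTKO. Over the other 14 genes the long-term genotype difference ran from -0.088 (Gdf3 and Apobec1, which share a bin) to 0.14 (Chd4, a chromatin remodeller). Their stage differences ran from -0.19 to 0.082 in Ctrl and from -0.13 to 0.072 in Tet iTKO. Single bins other than Tet3 were not tested.

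Against the mean of long-term Ctrl, the Dnmt TKO library differed by at least 0.25 in 3 of 292 chromosome 6 windows (1.03%), a lower share than the 5.21% of all autosomal windows. There is 1 library and no replicate check, and genotype and cell line cannot be told apart in it. A pair of these windows lies at the start of the chromosome, 3050001 to 3500045 and 3500046 to 4000096, with Calcr (the calcitonin receptor), Samd9l and Vps50, and the other is the pseudogene window described above. The start windows were at 0.72 and 0.68 in Dnmt TKO, against 0.30, 0.28 and 0.29 and against 0.083, 0.12 and 0.085 in long-term Ctrl.

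Most bins had a depth near the median of the genome. No chromosome 6 bin was at 0 in any library, and 80.9% had a mean relative depth of 0.9 to 1.1. Only 8 bins exceeded 1.5 and none fell below 0.5. The 3 deepest, at 3.29, 3.20 and 2.29, were 47737040 to 47787025, which holds Rny3 (a Y RNA), 47637086 to 47687039, and 103622371 to 103672357 within Chl1 (a neural cell adhesion gene). The deepest ranged from 3.20 to 3.51 in early and from 3.17 to 3.30 in long-term libraries, which overlap. Both bins at 47 Mb lie in the 1 window of 293 that the depth filter left out.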

How the data were processed

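Per the paper's methods, the authors trimmed reads, mapped them to mm10 (BWA-mem) and took out optical duplicates (Picard MarkDuplicates), and the submitters' processing notes also list BSMAP 2.74v. The deposited depth is a coverage signal per bin (mean reads per base) with no scaling or GC correction, and the deposited log2 column is its log2. Here, bins were summed into 500 kb windows (at least 250 kb of bins), windows outside a mean relative depth of 0.5 to 1.5 were left out, and a lowess GC correction (span 0.3, 3 iterations) was applied per library. GC content came from GRCm38 and genes from GENCODE M21. For all 4781 autosomal windows, limma 3.58.1 (R 4.3.3, Benjamini-Hochberg) was fitted to the 6 groups of Ctrl and Tet iTKO libraries, and single values were compared by exact permutation (scipy 1.17.1). In simulated data for the long-term comparison (4781 windows), 93.9% of windows changed by 0.1 were called, 100% at 0.2, and 0.306% of unchanged windows. The simulated libraries varied by read counting alone. Many windows were changed in them, which makes the adjusted p easier to pass. These rates therefore need not hold for the libraries themselves. Named were blocks by rank, windows called or separating stages, and listed genes in full or by range, with 1 listed gene left out. The chromosome and gene lists were chosen with earlier results of these data known. Deviations of equally numbered replicates from their group means did not correlate (r from -0.0091 to 0.022), so that numbers were not taken as pairs.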

Additional observations from a re-analysis of the deposited data

Results flagged for a closer look

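In 3 windows of 500 kb the long-term minus early difference was not the same in Tet iTKO as in Ctrl, by the limma test of that difference itself. It was lower in Tet iTKO by -0.20 in the Klrb1 and Clec2 window that starts at 128515837 and by -0.24 in the Klra window that starts at 130015444. It was higher by 0.37 in the window that starts at 130515312. In each of them the early libraries of the 2 genotypes were also apart. Stage and cell line cannot be told apart in these libraries. The limma test of the stage difference uses the early and long-term values that selected the chromosome, so that its results are a description.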

How the results depend on the processing

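The stage shift of chromosome 6 stayed above 0 under each alternative run, and without one library at a time it ranged from 0.0103 to 0.0141 for both genotypes, from 0.0142 to 0.0167 in Ctrl and from 0.00525 to 0.0127 in Tet iTKO. The long-term genotype difference of the median had no settled sign: it was -0.0018 as a mean over windows, and ranged from -0.0030 to 0.0045 without one library at a time. With the replicate numbers as a block it was 0.00038 (paired exact permutation test, p = 1). Windows separating the stages numbered 2 at a minimum difference of 0.05 (0.685%, against 0.335% of all autosomal windows). In 100 kb windows they numbered 9 of 1458. The share over all autosomal 100 kb windows is not given here, so that nothing is read from the 9. Both counts use the contrast that selected the chromosome. Called windows on chromosome 6 between the long-term genotypes numbered 6 in 1 Mb windows (4.08%, against 1.05% of all autosomal windows), 5 in 100 kb windows (0.343% against 0.147%), 7 with a trended and robust limma prior (2.40% against 0.607%), 3 with a replicate block (1.03% against 0.314%) and 2 to 5 without one library (0.685% to 1.71% against 0.209% to 0.502%, with 5 without Tet iTKO replicate 2). For the stage difference they numbered 5 (3.40% against 0.753%), 10 (0.686% against 0.122%) and 5 (1.71% against 0.356%) under the first 3 of these, and 2 to 4 without one library (0.685% to 1.37% against 0.146% to 0.376%). The Tet3 difference ranged from 0.0542 to 0.0936 without one library, and was 0.0556 with GC-corrected bins.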
